A study of Rattus norvegicus with 52 samples.

Results

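Kidney gene expression was compared between rats of the congenic strain ET3x1 and their parent strain, the Dahl SS/jr rat, after 1 day on a salty diet. The comparison used 4 ET3x1 rats and 5 S rats, 9 of the 26 rats of the study and 18 of its 52 arrays, since RNA of 1 left kidney from each rat was measured on 2 chips. The members are all probe sets of both chips that are not controls. Rats were chosen by the strain and diet in the array titles, and the 2 chips of a rat were matched by its animal number.

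All rats were male, of the same age and raised alongside each other, and they went onto food with 0.4% NaCl at weaning, 30 days after birth. At 39 to 41 days of age these 9 rats were moved to food with 4% NaCl for 24 hours, and they were killed at 40 to 42 days with pentobarbital. The same strains kept on 0.4% NaCl, 4 ET3x1 and 5 S rats of the same age, served as an independent set. The Dahl S rat was bred for hypertension in response to dietary salt. A congenic strain carries a chromosome segment of a donor strain, here the R in the strain's name, on an otherwise S background. The ET3 strains are known as chromosome 3 congenics. The ends of the segment, the blood pressures of these rats and the time of day at which they were killed are not given in the labels, and the labels name no litter, so p-values measure the spread between single rats. The study as a whole was aimed at the segment of a related strain, ET3x2.

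The kidney filters blood through tufts of capillaries, the glomeruli, that podocytes wrap and a laminin and type IV collagen membrane supports. The proximal tubule then takes back most of the filtered salt, sugar and protein. The thick ascending limb, distal convoluted tubule and collecting duct set the last part of sodium uptake, under angiotensin and aldosterone. Many of these transporters follow a daily rhythm set by the clock genes, in which Clock and Bmal1 activate Per, Cry and Nr1d genes that in turn repress them.

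Probe sets of the kidney's own cells were bright in the 9 rats. The phosphate transporter Slc34a1 of the proximal tubule, uromodulin (Umod) of the thick ascending limb and the water channel Aqp2 of the collecting duct lay at percentiles 99.8, 99.9 and 98.2 of the RAE230A chip. Markers of liver, adrenal, fat and skeletal muscle were dim, with albumin (Alb), a liver gene, at percentiles 20.1 and 29.0 in its 2 probe sets and the muscle myosin Myh4 at percentile 0.498. The dimmer Alb probe set read 5.97 to 6.24 in ET3x1 and 5.73 to 5.81 in S. Another liver gene, Apoa1, read 5.93 to 6.06 in ET3x1 and 5.63 to 5.79 in S. Dim probe sets of other cells did not overlap either. The adrenal gene Cyp17a1 read 5.96 to 6.04 in ET3x1 and 5.70 to 5.91 in S. A probe set of the leukocyte gene Ptprc read 5.51 to 5.67 and 5.39 to 5.49. The fat and muscle markers overlapped. Red cell genes were bright, Hbb at percentile 99.96 and Alas2 at 93.9. Leukocyte genes were mixed, with Cd74 at 98.4, Lyz2 at 97.2, Cd68 at 63.0 and Ptprc at 5.38 and 11.8.

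In ET3x1 kidneys on high salt, several genes of the glomerular capillary and its membrane were lower, among them the podocyte coat protein Podxl (1.55-fold), the growth factor receptor Kdr (1.60-fold) and the laminin chain Lamb2 (1.73-fold). The clock repressor Per3 (1.62-fold), the salt transporter Slc12a3 (1.43-fold) and the injury protein Spp1 (1.53-fold) were lower as well. The proximal tubule factor Hnf4a (1.97-fold), the cation transporter Slc22a2 (0.58 on the log2 scale), the histocompatibility gene RT1-A (1.68-fold) and the helicase Rtel1 (1.52-fold) were higher. None of these 10 genes, which were picked from called genes, overlapped between the 4 ET3x1 and 5 S rats in the probe set given. Over all 8825 tested genes, 14.9% did not overlap. Not all glomerular genes were lower. The podocyte gene Cdkn1c was higher (0.34 on the log2 scale), and the median of 8 tested podocyte genes was 0.01. The endothelial genes Pecam1, Tek and Tie1 were not called. With an array measure described below, the Gapdh difference, as a covariate, Hnf4a, Slc12a3, Slc22a2 and RT1-A were no longer called. Podxl, Kdr, Lamb2, Per3, Spp1 and Rtel1 still were. No gene of the renin-angiotensin or aldosterone lists was called.

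Of 15473 probe sets tested, 2246 (14.5%) passed the test between the strains on high salt, limma's moderated test with a Benjamini-Hochberg adjusted p below 0.05. Of these, 756 were higher in ET3x1 (4.89% of those tested) and 1490 were lower (9.63%). The differences were small. The median absolute log2 difference of the called probe sets was 0.33, against 0.12 over all probe sets tested, and 4 higher and 7 lower probe sets passed 1 on the log2 scale, a doubling or halving. The groups of rats did not overlap in 841 higher (5.44%) and 1494 lower (9.66%) probe sets, and 481 and 1050 of those were also called. The share of calls that were higher was 33.7%, and it was 44.6% after quantile normalization of the arrays and 42.7% after setting their medians equal. Without ET3x1 rat 39848 the count of calls was 1202, without rat 39849 it was 1126, and without both S7416 and S7417 it was 1279.

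Measures of the arrays themselves moved with the strains on this diet. The first was the log2 difference between the 3' and 5' control probe sets of Gapdh, which grows where the labelled RNA is short of its 5' end. Labelling started from the poly(A) tail, per the labels, and RNA integrity was checked on gels. On RAE230A the 4 ET3x1 rats had 0.594 ± 0.0265 (SD, n = 4) and the 5 S rats 0.812 ± 0.0526 (SD, n = 5), and on RAE230B the values were 0.422 ± 0.0849 and 0.661 ± 0.0984. The groups did not overlap on either chip (exact permutation test, two-sided, p = 0.00794, the smallest that 4 against 5 rats can give; adjusted p = 0.0635 over 16 such tests). The beta-actin measure was likewise lower in ET3x1, 0.609 against 0.923 on RAE230A (exact p = 0.0397, adjusted 0.106) and 0.300 against 0.700 on RAE230B (exact p = 0.0159, adjusted 0.0847). On low salt the Gapdh measure was 0.877 in ET3x1 and 0.827 in S on RAE230A (exact p = 0.405).

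The second was the difference between 2 spiked-in control transcripts, bioD minus bioC. It was 1.48 and 1.64 on RAE230A in S rats S7416 and S7417, and 2.57 to 2.80 in the 4 ET3x1 rats. The other 3 S rats reached up to 2.77, and the strains did not pass the test on that chip (exact p = 0.373). On RAE230B the means were 2.82 in ET3x1 and 2.27 in S (exact permutation p = 0.0317, adjusted 0.102), with S7416 and S7417 again lowest at 1.75 and 1.93. On low salt the mean was lower in ET3x1 than in S on both chips. It was 2.23 against 2.56 on RAE230B (exact permutation p = 0.0794, adjusted 0.159). On RAE230A the low-salt test gave an exact permutation p of 0.103 (adjusted 0.183).

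**Figure D1:**
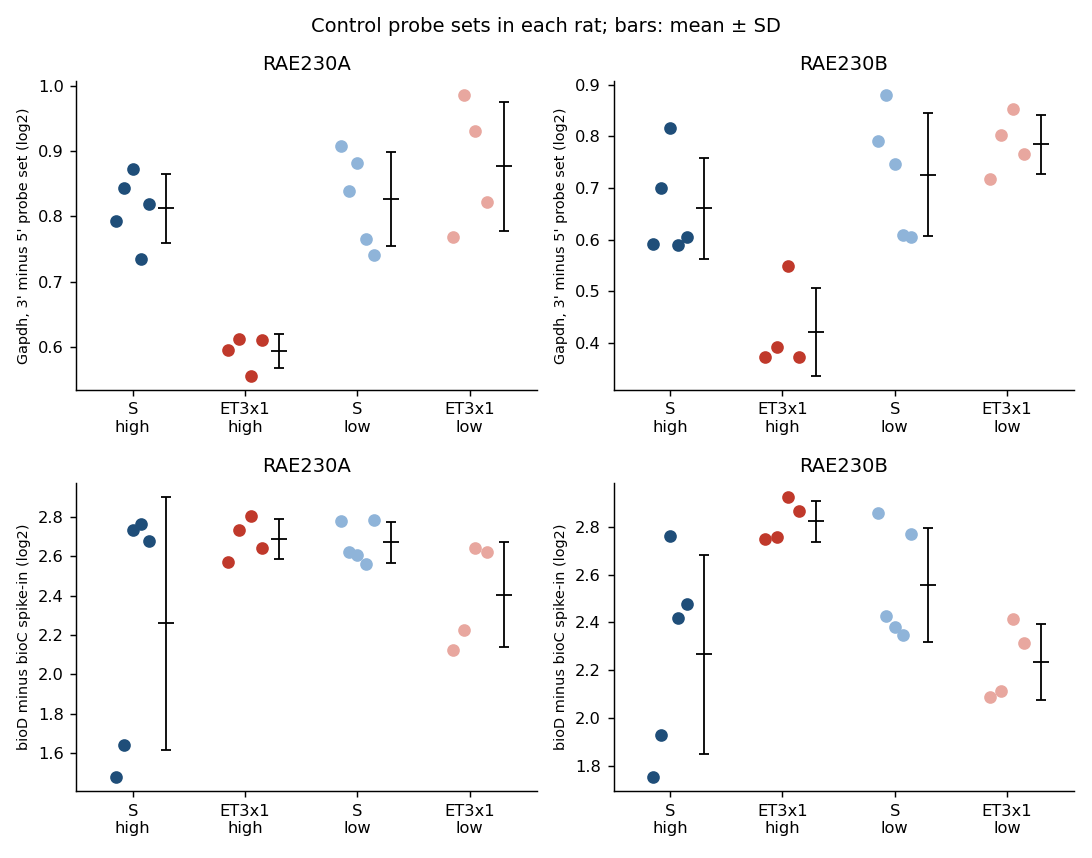
Control measures of each rat by strain and diet, in log2 units, on the chip RAE230A (left) and RAE230B (right). The upper row shows the Gapdh 3' minus 5' difference and the lower row bioD minus bioC. Points are rats and bars are the mean ± SD of 4 ET3x1 or 5 S rats. The ET3x1 rats on high salt lie below every S rat on that diet in the Gapdh measure, and S7416 and S7417 are the lowest S rats in bioD minus bioC.

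With the Gapdh measure as a covariate 227 probe sets were called, 42 higher and 185 lower, and 221 of the 2246 calls remained with their direction. The median ratio of the difference with the covariate to that without was 0.956, 0.897 for probe sets called higher and 0.994 for those called lower, and 2245 of the 2246 kept their sign. The median standard error rose from 0.0891 to 0.121. Of 92 named probe sets called on high salt, 20 were called with this covariate. Among the 39 of them called higher, 11 became more than 1.5 times smaller, and among the 53 called lower 2 did. Ptpa went from 0.90 to 0.34, Eif3c from 0.77 to 0.43, Gga2 from 1.00 to 0.65, Borcs7 from 0.83 to 0.53 and Slc39a5 from 0.74 to 0.47. Leaving out each of the 9 rats in turn, 50 of the 92 were called every time, 22 in 5 to 8 of the 9 fits and 20 in fewer. Since no ET3x1 rat overlapped an S rat in it, strain and this measure cannot be told apart among the 9 rats.

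**Figure D2:**
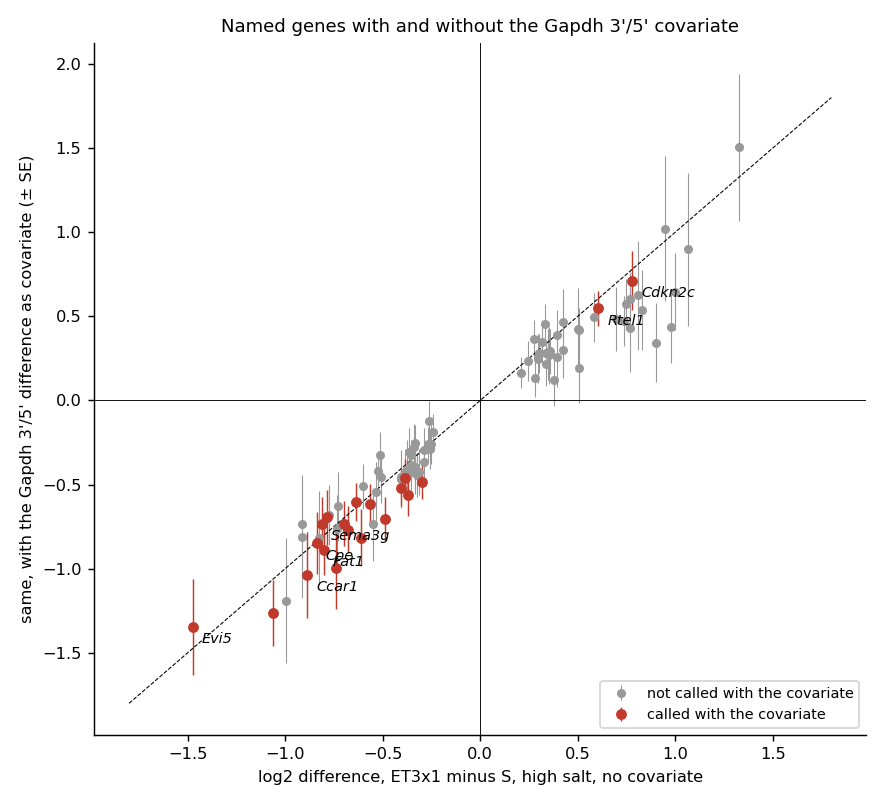
Log2 difference, ET3x1 minus S, on high salt for the 92 named probe sets called without a covariate (x axis) and the same with the Gapdh 3' minus 5' difference as covariate (y axis, ± SE). Red points, 20 in all, were called with the covariate. Genes lower in ET3x1 lie near the dashed line of equality, and many of the higher genes lie below it, with Ptpa at 0.90 without and 0.34 with the covariate.

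Gba3 led the genes higher in ET3x1. This gene, a cytosolic beta-glucosidase, read 9.22, 9.31, 9.03 and 8.44 (log2) in the ET3x1 rats. It read 7.85, 8.47, 8.05, 6.97 and 7.04 in the S rats. Only the lowest ET3x1 rat and the highest S rat met, by a small margin. The difference was 1.33 ± 0.33 (log2, SE), 2.51-fold, with an adjusted p of 0.00880. On low salt it was -0.13 ± 0.33.

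Ggt1, the gamma-glutamyl transferase of the proximal brush border that breaks down glutathione, was higher by 1.07 ± 0.32 (adjusted p = 0.0272). The 4 ET3x1 rats read 12.68 to 12.70. The S rats read 10.47, 10.24, 12.08, 12.77 and 12.58. The lowest were S7416 and S7417, the pair set apart by bioD minus bioC, and without both the difference was 0.22 (adjusted p = 0.329). Ggt1 was called in 5 of the 9 fits without 1 rat. Cish, a feedback inhibitor of cytokine signalling, was higher by 0.94 ± 0.31 (adjusted p = 0.0376), with the same 2 rats lowest at 6.73 and 6.77. Without both the difference in Cish was 0.53 (adjusted p = 0.305), and Cish was called in 2 of the 9 fits without 1 rat.

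Hnf4a, a transcription factor that drives proximal tubule genes, was higher in every ET3x1 rat than in any S rat. It read 9.41, 9.73, 9.79 and 9.70 against 8.71, 8.57, 8.01, 9.21 and 8.91, a difference of 0.98 ± 0.19 (1.97-fold, adjusted p = 0.00150). A second probe set of Hnf4a was higher by 0.52 and called, and another was at -0.06 and not called. With the Gapdh covariate the first was at 0.43 (adjusted p = 0.288).

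The sorting adaptor Gga2 was higher by 1.00 ± 0.19 and the endocytic adaptor subunit Ap2s1 by 0.81 ± 0.23, with no overlap between the groups in either. Ap2s1 was called in 7 of the 9 fits without 1 rat, and without both S7416 and S7417 the adjusted p was 0.0689 for Ap2s1 and 0.0758 for the translation initiation subunit Eif3c. A second probe set of Gga2 differed by 0.06 and was not called. The lysosome-positioning subunit Borcs7 (0.83), the phosphatase activator Ptpa (0.90), Eif3c (0.77), the A-kinase anchoring gene Pakap (0.77), the zinc transporter Slc39a5 (0.74) and the integrator subunit Ints7 (0.70) completed the largest increases. The other probe sets of Ptpa, Pakap and Ints7 differed by -0.07 to -0.04, and none was called.

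Cdkn2c, an inhibitor of cyclin-dependent kinases, was higher by 0.78 ± 0.13 and by 0.66 on low salt. It was the only one of the 14 genes with the largest increases that was called with the Gapdh covariate (0.71 ± 0.17, adjusted p = 0.0373). Its second probe set was at 0.12 and not called. RT1-A, a class I histocompatibility gene, was higher by 0.75 ± 0.11 (adjusted p = 0.000175), and by 0.48 on low salt. It reached 0.57 with the Gapdh covariate (adjusted p = 0.051).

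The genes lower in ET3x1 were led by Evi5, which regulates small GTPases at the end of cell division. Evi5 read 7.95, 8.19, 7.48 and 7.0 in the ET3x1 rats and 8.46, 9.18, 9.61, 9.17 and 9.23 in the S rats. The groups did not overlap. The difference was -1.47 ± 0.22, 2.78-fold, with an adjusted p of 0.000151. On low salt Evi5 was higher in ET3x1 by 1.58 ± 0.22, and the difference between diets was -3.05 ± 0.30 (adjusted p = 7.30e-07). A second probe set of Evi5 was at -0.22 and not called.

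Tns1, which encodes tensin 1 at focal adhesions, behaved alike in 1 of its probe sets. The 4 ET3x1 rats read 8.45 to 8.46 and the S rats 9.10, 9.45, 9.61, 9.75 and 9.67, a difference of -1.06 ± 0.14 (adjusted p = 6.98e-05). On low salt it was higher by 1.15. The brightest Tns1 probe set was lower by 0.41 (-0.41 ± 0.08) and called, another was higher by 0.39 and called, and the last was at -0.16 and not called.

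Egr1, an immediate early transcription factor induced within minutes of a stimulus, read 8.08, 7.89, 7.47 and 7.60 in ET3x1. It read 9.24, 8.72, 8.57, 9.40 and 7.84 in S. A single S rat, S7435, lay within the ET3x1 range. The difference of -0.99 ± 0.26 (1.99-fold, adjusted p = 0.0135) became -0.84 without S7416 and S7417 (adjusted p = 0.078) and -1.19 with the Gapdh covariate (adjusted p = 0.092).

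Ccdc6 (-0.91), Ccar1 (-0.89) and the carboxypeptidase Cpd (-0.83) were lower on high salt and higher on low salt, by 1.00, 0.74 and 1.00. Cpe, the carboxypeptidase that trims prohormones, was lower on both diets, by -0.84 ± 0.13 and -0.77 ± 0.13. Fat1, a giant cadherin of podocytes and tubules, read 9.62, 9.52, 9.66 and 9.35 against 10.47, 10.30, 10.56, 10.20 and 10.19. Its groups did not overlap, its difference was -0.80 ± 0.10 (adjusted p = 4.45e-05), and on low salt it was -0.70. Kmt2c (-0.78), a histone methyltransferase, Nfib (-0.74), a nuclear factor, and the vesicle protein Sv2b (-0.73) were also lower without overlap between the groups.

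Of these 28 genes, 14 had another tested probe set, 20 in all. Of the 20, 3 were called in the gene's direction, those of Hnf4a, Borcs7 and Tns1, 1 was called in the other direction, that of Tns1, and 13 shared the sign. The largest calls also included 7 probe sets with no gene name, chosen here after their values were seen. The lowest of them, on RAE230B, read 7.80, 8.19, 7.88 and 7.41 in ET3x1 and 9.44, 9.56, 10.01, 9.32 and 9.20 in S, a difference of -1.69 ± 0.21 (adjusted p = 3.27e-05). It was lower on low salt too, by -1.27.

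**Figure D3:**
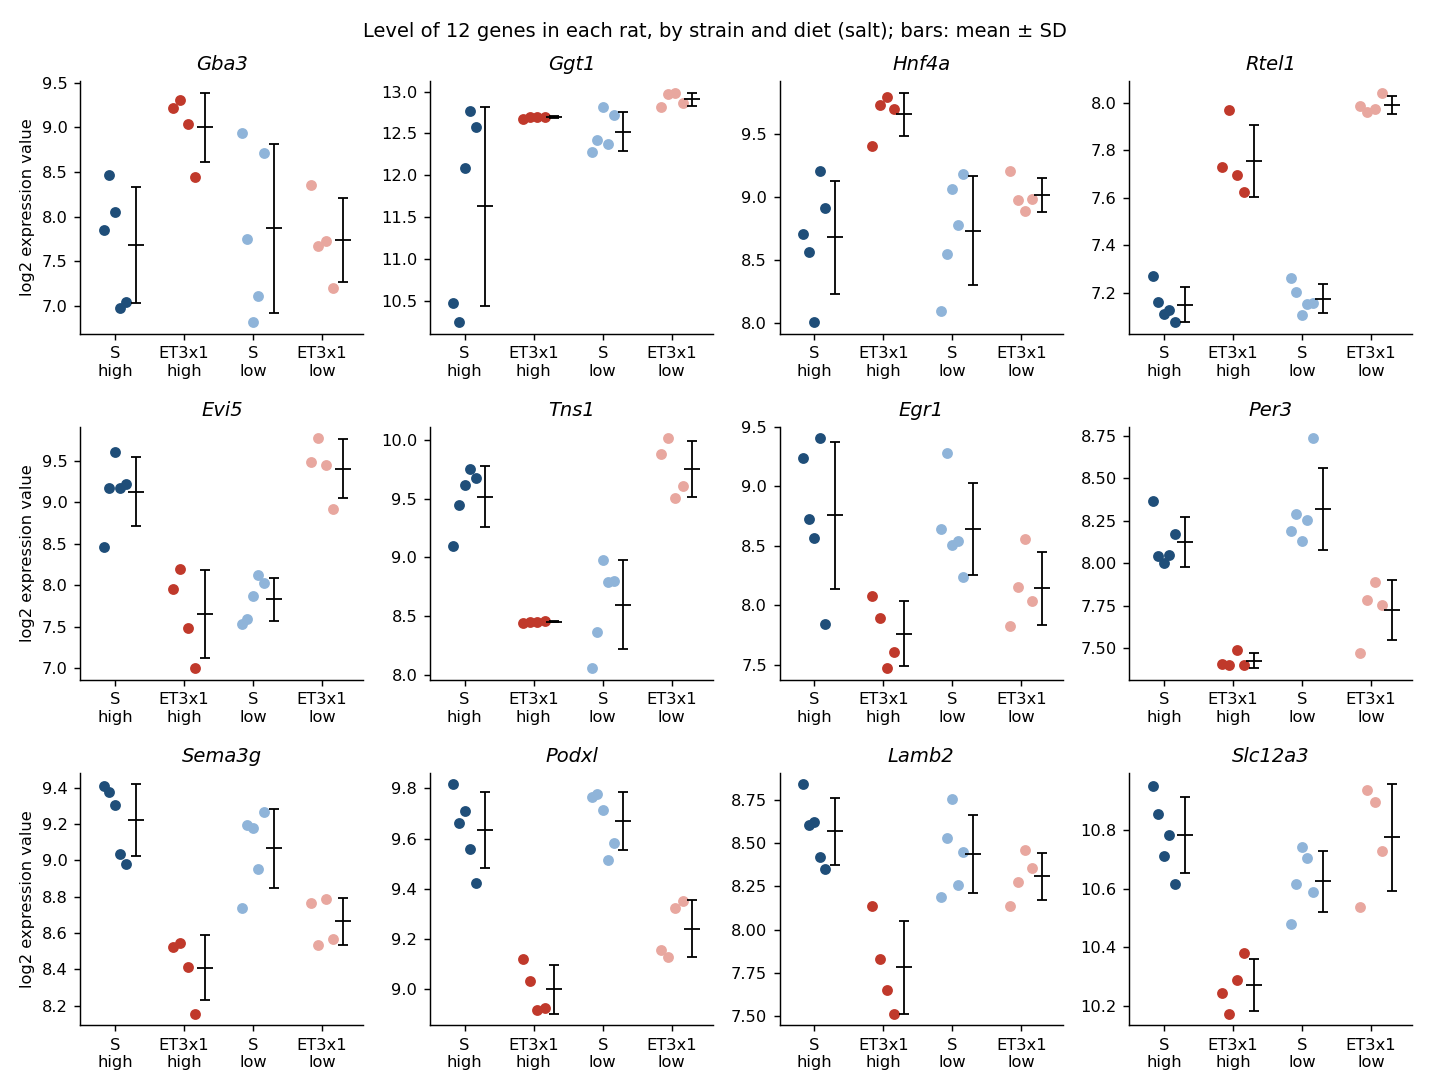
Log2 level of 12 genes in each rat, by strain and diet, with points for single rats and bars for the mean ± SD of 4 ET3x1 or 5 S rats. On high salt ET3x1 and S rats do not overlap in Hnf4a, Rtel1, Evi5, Tns1, Per3, Sema3g, Podxl, Lamb2 and Slc12a3. Ggt1 is lowest in 2 S rats, at 10.24 and 10.47, and reads 12.08 to 12.77 in the other S rats on high salt. Evi5 and Tns1 take opposite sides on low salt.

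Gene lists were read by the brightest probe set of each gene. Among all 8825 genes tested this way, 12.7% were called on high salt, 4.39% higher and 8.35% lower, and the median log2 difference was -0.02. On low salt the share was 29.8%, with 21.4% higher and 8.42% lower, and for the difference between diets it was 5.8%, with 0.884% higher and 4.92% lower.

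**Figure D4:**
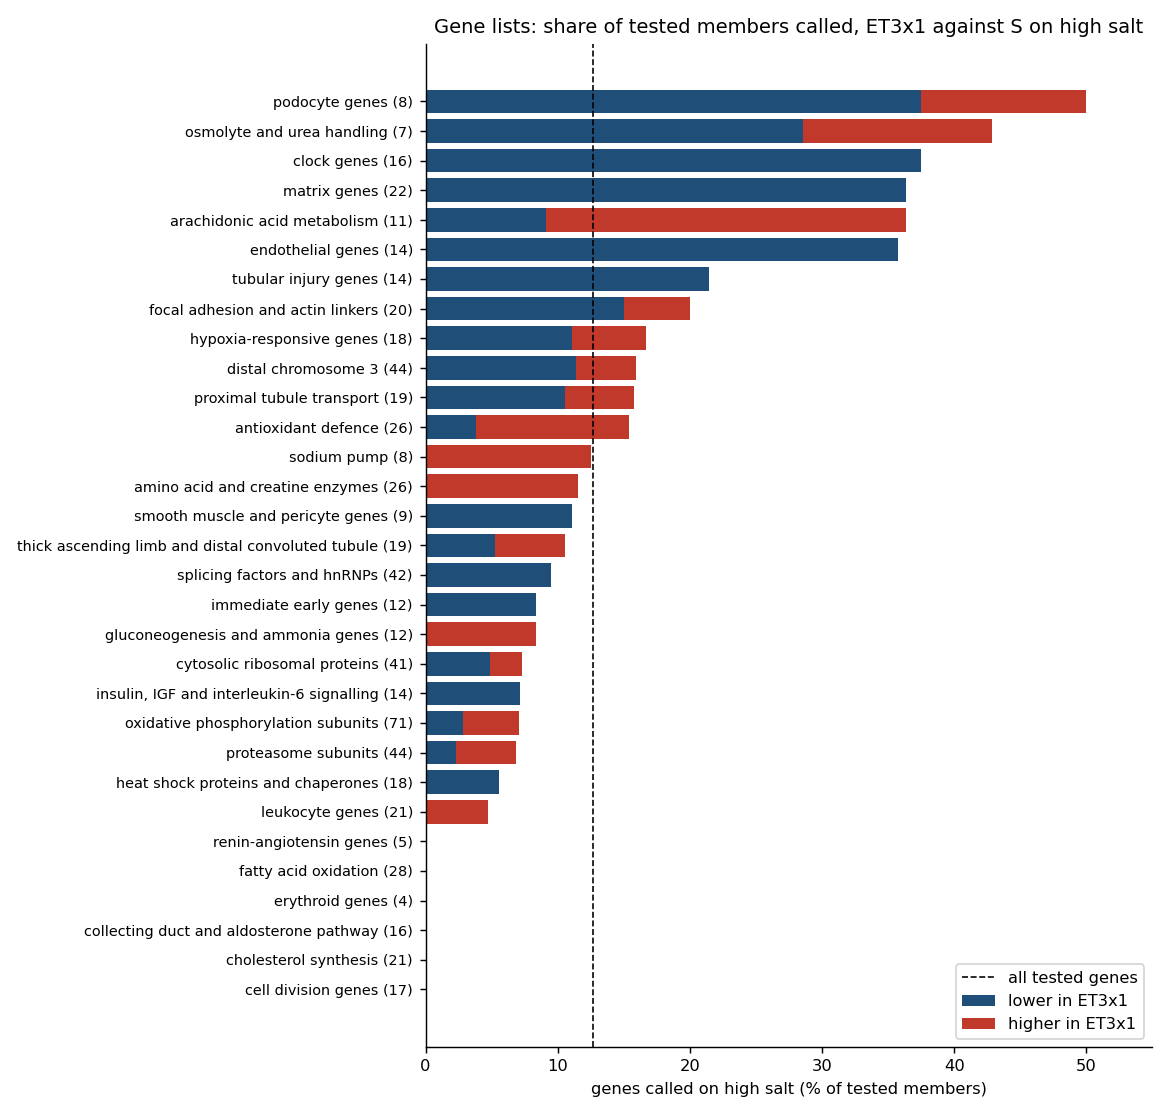
Share of the tested members of 31 gene lists called between ET3x1 and S on high salt, in percent, with lower genes in blue and higher genes in red. The number of tested members stands in parentheses, lists with fewer than 4 tested members are left out, and the dashed line is the 12.7% of all tested genes. Podocyte, osmolyte, clock, matrix, arachidonic acid and endothelial lists lie farthest above it.

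Endothelial genes were lower where they differed. Of 14 tested, 5 were called and all 5 were lower, with a median of -0.19 over the list. Sema3g, a semaphorin of arteries and glomeruli, read 8.52, 8.54, 8.41 and 8.15 against 9.41, 9.37, 9.31, 9.04 and 8.98, a difference of -0.81 ± 0.12 (adjusted p = 0.000151). Kdr, the main receptor for vascular endothelial growth factor, was lower by -0.68 ± 0.10, and its co-receptor Nrp1 by -0.73 ± 0.15. Ehd3, a membrane-trafficking protein of glomerular endothelium, was lower by -0.49, and endomucin (Emcn) by -0.32. None of the 5 overlapped between the groups. Over the list 6 of 14 did not overlap, against 14.9% of all tested genes. Second probe sets of Sema3g (-0.17) and Nrp1 (-0.21) were not called. On low salt the first probe set of Sema3g was at -0.40 and called, and that of Nrp1 at 0.17 and not called. The second probe set of Sema3g was at 0.20 there and that of Nrp1 at -0.43, the latter called. Over the 14 genes 2 were called higher and 3 lower on low salt, with a median of 0.04. The pan-endothelial genes Pecam1 (-0.04), Tek (-0.03) and Tie1 (-0.10) were not called. Vegfa, the growth factor that Kdr and Nrp1 bind, was lower by -0.37 ± 0.10 (adjusted p = 0.0132, and 0.0746 without both S7416 and S7417). Kdr, Sema3g, Ehd3 and Vegfa were called with the Gapdh covariate. In RNA of a whole kidney, fewer cells of a type and less RNA per cell cannot be told apart.

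Of 8 podocyte genes tested, 3 were lower, 1 was higher and the median was 0.01. Podocalyxin (Podxl), the charged coat protein of podocytes, read 9.12, 9.03, 8.92 and 8.92 in ET3x1. It read 9.82, 9.66, 9.71, 9.56 and 9.42 in S. The groups did not overlap, and the difference was -0.64 ± 0.08 (1.55-fold, adjusted p = 3.27e-05). Other Podxl probe sets, at percentiles 23.3 and 7.60 of the chip and too dim to be tested, were at 0.18 and -0.07. Synaptopodin (Synpo), which binds actin in the foot processes, was lower by -0.57 ± 0.08, and the receptor phosphatase Ptpro by -0.40. Cdkn1c, a cell cycle inhibitor of mature podocytes, was higher by 0.34 ± 0.10. Podxl and Synpo were called with the Gapdh covariate, at -0.61 and -0.62, and were lower on low salt as well, both by -0.43.

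Matrix genes moved one way where they were called. Of 22 tested, 8 were lower and none was higher, with a median of -0.25. The groups did not overlap in 12 of the 22, against 1315 (14.9%) of all 8825 tested genes. Lamb2, the laminin chain of the glomerular membrane, read 8.14, 7.83, 7.65 and 7.51 against 8.84, 8.61, 8.62, 8.42 and 8.35. Its difference was -0.79 ± 0.12 on high salt and -0.13 ± 0.12 on low salt, and the difference between diets was -0.66 ± 0.16 (adjusted p = 0.0198). Lama5, which pairs with Lamb2 in that laminin, was lower by -0.52 ± 0.09, Lamc1 by -0.47, the type IV collagen chain Col4a2 by -0.51 and fibronectin (Fn1) by -0.38. Ccn2, a growth factor of fibrosis, was lower by -0.55 ± 0.16, with overlap in 1 rat of each strain and a call in 6 of the 9 fits without 1 rat. Sparc and Col6a1 were the other lower members. The interstitial collagens Col1a1 (-0.35), Col1a2 (-0.05) and Col3a1 (-0.07) were not called. With the Gapdh covariate Lamc1 and Lamb2 were called and the list's median was -0.30.

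Of 14 tubular injury genes, 3 were lower. Osteopontin (Spp1), which injured tubules secrete, read 11.998, 11.73, 11.84 and 11.83 in ET3x1 and 12.64, 12.49, 12.68, 12.09 and 12.37 in S. The groups did not overlap. The difference was -0.61 ± 0.13 (adjusted p = 0.00266), -0.66 on low salt and -0.82 with the Gapdh covariate (adjusted p = 0.0181). The adhesion molecule Vcam1 was lower by -0.38 and the protease inhibitor Timp1 by -0.26. Without both S7416 and S7417 the adjusted p was 0.142 for Vcam1 and 0.175 for Timp1, and these were called in 3 and 2 of the 9 fits without 1 rat. Lcn2 (-0.05), Clu (-0.08) and Cd44 (-0.03) were not called.

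Clock genes were called in 6 of 16 cases (37.5%), all lower, with a median of -0.31. The called members spanned several arms of the clock. Per3, a repressor of the cycle, read 7.41, 7.40, 7.49 and 7.40 in ET3x1 and 8.37, 8.04, 8.00, 8.05 and 8.17 in S. The difference was -0.70 ± 0.10 (1.62-fold, adjusted p = 0.000121), -0.60 on low salt and -0.73 with the Gapdh covariate (adjusted p = 0.00955). Nr1d2, a nuclear receptor that represses Bmal1, was lower by -0.53 ± 0.12 (adjusted p = 0.00629). The output factor Tef (-0.41), the mitotic kinase Wee1 (-0.36), the repressor Bhlhe41 (-0.34) and the activator Clock itself (-0.29) were lower too. Dbp (-0.36), Nr1d1 (-0.38) and Per1 (-0.41) were not called, and Per2 was at 0.13. Per3 was the only called member with the Gapdh covariate, and the count of calls was 4 after setting array medians equal, 4 without both S7416 and S7417, 3 without ET3x1 rat 39845 and 2 without ET3x1 rat 39849. Tef and Wee1 were each called in 5 of the 9 fits without 1 rat.

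Promoter windows of RefSeq, from 250 bases before to 50 after the gene's start in build GRCr8, were found for 13 of the 16 clock genes and searched on both strands. The E-box CACGTG, the letters that Clock and Bmal1 are known to bind, was in 3 of the 13, among them 2 of the 5 called clock genes with a window, and in 6.42% of 33469 windows. The D-box TTATGTAA, read by Tef, Dbp and Hlf, was in 1, that of Per2, and in 0.893% of windows. The cAMP response element TGACGTCA was in none and in 1.83% of windows. Among 8 immediate early genes with a window, 2 held the E-box and 2 the cAMP response element, and none of these was called. The 250 bases before the start are shown for the 2 called genes with an E-box, in capitals, Tef from the plus strand of chr7:115206577-115206826 and Bhlhe41 from the minus strand of chr4:180569356-180569605.
Tef: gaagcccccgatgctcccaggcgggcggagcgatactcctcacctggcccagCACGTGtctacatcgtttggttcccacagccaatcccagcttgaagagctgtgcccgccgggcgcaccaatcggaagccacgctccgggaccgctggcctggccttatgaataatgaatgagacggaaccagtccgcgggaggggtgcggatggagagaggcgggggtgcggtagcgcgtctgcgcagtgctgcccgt
Bhlhe41: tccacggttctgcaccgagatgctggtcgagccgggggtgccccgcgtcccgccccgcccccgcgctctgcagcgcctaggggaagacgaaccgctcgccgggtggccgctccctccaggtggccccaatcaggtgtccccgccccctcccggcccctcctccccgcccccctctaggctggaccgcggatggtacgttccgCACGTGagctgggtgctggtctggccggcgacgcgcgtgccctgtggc
The E-box starts 198 bases before the start of Tef and 48 bases before that of Bhlhe41, and such a match does not show that a factor binds there.

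Among proximal tubule transporters, 1 of 19 was higher and 2 were lower, with a median of -0.01. Slc22a2, the organic cation transporter OCT2, read 10.68, 10.82, 10.70 and 10.74 in ET3x1 and 10.21, 10.03, 10.11, 10.34 and 10.05 in S. The groups did not overlap, and the difference was 0.58 ± 0.10 (adjusted p = 0.000875) on high salt and 0.42 on low salt. With the Gapdh covariate Slc22a2 was at 0.49 (adjusted p = 0.0762). Megalin (Lrp2) and cubilin (Cubn), the paired receptors that take filtered protein back, were lower by -0.38 ± 0.08 and -0.30 ± 0.08. They were lower on low salt by -0.33 and -0.25, and both were called with that covariate. The sodium-hydrogen exchanger Slc9a3 (-0.01), the glucose transporter Slc5a2 (0.15) and the brightest probe set of the phosphate transporter Slc34a1 (-0.12) were not called. A second Slc34a1 probe set was lower by -0.48 and called, with overlap between the groups. Without both S7416 and S7417 the adjusted p of Cubn was 0.110.

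Of 19 genes of the thick ascending limb and distal convoluted tubule, 1 was lower and 1 was higher, with a median of -0.03. Slc12a3, the thiazide-sensitive sodium chloride cotransporter, read 10.24, 10.17, 10.29 and 10.38 in ET3x1 and 10.95, 10.85, 10.71, 10.78 and 10.62 in S. The groups did not overlap. The difference was -0.51 ± 0.10 (1.43-fold, adjusted p = 0.00199) on high salt and 0.15 ± 0.10 on low salt, and the difference between diets was -0.66 ± 0.14 (adjusted p = 0.00989). With the Gapdh covariate Slc12a3 was at -0.33 (adjusted p = 0.200). The tight junction gene Cldn19 was higher by 0.35 (adjusted p = 0.0466) and was called in 2 of the 9 fits without 1 rat. The loop transporter Slc12a1 (0.02), the potassium channel Kcnj1 (0.14) and the kinases Wnk1 (-0.21), Stk39 (0.06) and Oxsr1 (-0.21) were not called.

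None of 16 collecting duct and aldosterone pathway genes was called, with a median of -0.05. The largest test statistics were those of the pump regulator Fxyd4 (-0.22 ± 0.09, adjusted p = 0.108) and the sodium channel subunit Scnn1b (0.15 ± 0.07, adjusted p = 0.122). Sgk1, a kinase induced by aldosterone, read 9.90, 9.73, 9.92 and 10.00 in ET3x1 and 9.78, 9.60, 10.61, 10.44 and 10.31 in S. The low S rats were again S7416 and S7417. Its difference was -0.26 ± 0.18 (adjusted p = 0.348), -0.57 without both (adjusted p = 0.042) and called with bioD minus bioC as a covariate (adjusted p = 0.00771). None of 5 renin-angiotensin genes was called, the largest test statistics being those of the angiotensin-cleaving peptidases Anpep (-0.12 ± 0.09) and Mme (-0.04 ± 0.10). Angiotensinogen (Agt) lay below the brightness limit and differed by 0.04 ± 0.12 without that limit (adjusted p = 0.865). The only endothelin gene tested, the converting enzyme Ece1, was at -0.15 ± 0.07 (adjusted p = 0.160).

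In arachidonic acid metabolism 3 of 11 genes were higher and 1 was lower, with a median of 0.17. The prostaglandin E synthases Ptges and Ptges2 were higher by 0.34 ± 0.06 and 0.33 ± 0.09, and the lipase Mgll, which frees arachidonate from 2-arachidonoylglycerol, by 0.40 ± 0.10. Ptges read 8.00, 8.02, 8.19 and 8.15 in ET3x1 and 7.68, 7.78, 7.71, 7.79 and 7.81 in S, without overlap. Cyp2j3, an epoxygenase, was lower by -0.60 ± 0.10 (adjusted p = 0.000589) and by -0.16 ± 0.10 on low salt. None of the list was called with the Gapdh covariate, and without both S7416 and S7417 the adjusted p of Ptges2 was 0.0608.

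Osmolyte genes were called in 3 of 7 cases. Sord, which makes fructose from sorbitol, was higher by 0.30 ± 0.07. Nfat5, the factor that switches on osmolyte genes, and its target Slc6a6, the taurine transporter, were lower by -0.31 ± 0.10 and -0.33 ± 0.10. Among antioxidant genes 3 of 26 were higher and 1 was lower. The superoxide dismutases Sod3 (0.51) and Sod2 (0.28) and the peroxiredoxin Prdx2 (0.30) were higher and the sulfiredoxin Srxn1 was lower (-0.33). Among amino acid and creatine enzymes 3 of 26 were higher, Gatm (0.42), which makes the creatine precursor, Bckdhb (0.35) and Agxt2 (0.21). Without both S7416 and S7417 the adjusted p was 0.065 for Nfat5, 0.063 for Sord, 0.071 for Agxt2, 0.059 for Bckdhb and 0.0505 for Gatm. None of these 3 lists had a call with the Gapdh covariate, where Sod3 was at 0.19 and Sod2 at 0.13. Of the 9 fits without 1 rat, Nfat5 and Sod2 were called in 5, Slc6a6 in 7, Agxt2 in 6, and Sod3 and Bckdhb in 4. Sod3 read 10.49 in S7418 and 11.47 to 11.70 in the other S rats.

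Other lists lay near or below the background. Cell division genes (17 tested), fatty acid oxidation (28) and cholesterol synthesis (21) had no call, with medians of 0.02, 0.04 and -0.10. The largest test statistics in these lists were those of Pcna (0.21 ± 0.09), Acads (0.26 ± 0.13) and Insig1 (-0.38 ± 0.14, adjusted p = 0.0642). Of 71 oxidative phosphorylation subunits 3 were higher and 2 were lower, against 33 and 2 on low salt, and of 44 proteasome subunits 2 and 1, against 22 and 0. Of 41 cytosolic ribosomal proteins 1 was higher and 2 were lower, of 12 gluconeogenesis and ammonia genes 1 was higher, and of 8 sodium pump genes the regulator Fxyd5 was higher (0.30, in 3 of the 9 fits without 1 rat). Egr1 was the only call among 12 immediate early genes. Of 21 leukocyte genes the complement gene C1qa alone was called, at 0.39 ± 0.13 and in 2 of the 9 fits without 1 rat, against 11 higher on low salt. The heat shock protein Cryab was lower by -0.39 ± 0.10, the smooth muscle myosin Myh11 by -0.36 ± 0.06 and the interleukin-6 receptor subunit Il6st by -0.36 ± 0.09, each the only call of its list. The glycolytic enzyme Aldoa was higher by 0.36 ± 0.10 and the hypoxia factor Epas1 lower by -0.29 ± 0.10, the latter in 2 of the 9 fits. Of the erythroid genes Hba-a3 was at 0.60 ± 0.27 (adjusted p = 0.139). Focal adhesion genes held 3 lower members, Fat1, Tns1 and Flna (-0.36), and 1 higher, Itgb1 (0.38), with Flna called in 4 and Itgb1 in 2 of the 9 fits. Splicing factors held 4 lower of 42, led by Srrm2 (-0.91 ± 0.26, adjusted p = 0.0191), which was called in 6 of the 9 fits. Of the genes in this paragraph, Tns1 and Fat1 were called with the Gapdh covariate, and Itgb1 went to 0.12. Without both S7416 and S7417 the adjusted p was 0.0818 for Cryab, 0.0566 for Il6st, 0.0662 for Aldoa, 0.143 for Epas1, 0.0873 for C1qa, 0.0732 for Flna, 0.125 for Itgb1 and 0.0578 for Srrm2.

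The ET3 segments lie on chromosome 3. Of its 669 tested genes 31 were higher and 47 lower, 11.7% in all, against 12.7% of all genes and 9.31% to 15.5% on the other chromosomes. Of 44 tested genes of its distal end, 2 were higher and 5 lower (15.9%). The split was 4 higher and 2 lower after quantile normalization, with the brightest Rtel1 probe set among the 4. It was 2 and 3 with array medians set equal, 1 and 2 without both S7416 and S7417, and with the Gapdh covariate none was called. Rtel1, a helicase that protects telomeres and was the 11th tested gene from the end of chromosome 3, did not overlap between the groups in its dimmer probe set. It read 7.73, 7.97, 7.69 and 7.62 in ET3x1 and 7.27, 7.16, 7.11, 7.12 and 7.08 in S. The difference was 0.60 ± 0.07 (1.52-fold, adjusted p = 3.27e-05) on high salt and 0.82 ± 0.07 on low salt, and it was called with the Gapdh covariate (0.55 ± 0.10, adjusted p = 0.01002). Its second, brighter probe set was at 0.21 ± 0.08 and not called. Arfrp1, a GTPase of the Golgi and the 9th tested gene from that end, was higher by 0.24 ± 0.08 and by 0.30 on low salt. Ppp1r3d, a glycogen-binding phosphatase subunit, was higher by 0.51 ± 0.10 and by 0.42 on low salt, and Zfp217, Lama5, Spo11, Dido1 and Stx16 were lower, Spo11 in 4 of the 9 fits without 1 rat.

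The rats on low salt are other animals, and they gave a partly like result. On low salt 4150 probe sets (26.8%) were called, 2587 higher (16.7%) and 1563 lower (10.1%). On both diets 734 (4.74%) were called in the same direction, 308 higher and 426 lower, which is 32.7% of the calls on high salt and 17.7% of those on low salt. Of the probe sets called higher on high salt, 86.6% had the same sign on low salt, and of those called lower 76.3%, against 63.7% of all probe sets tested. Across probe sets, which are not independent replicates, the 2 differences had a Pearson r of 0.338 and a Spearman rho of 0.392.

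**Figure D5:**
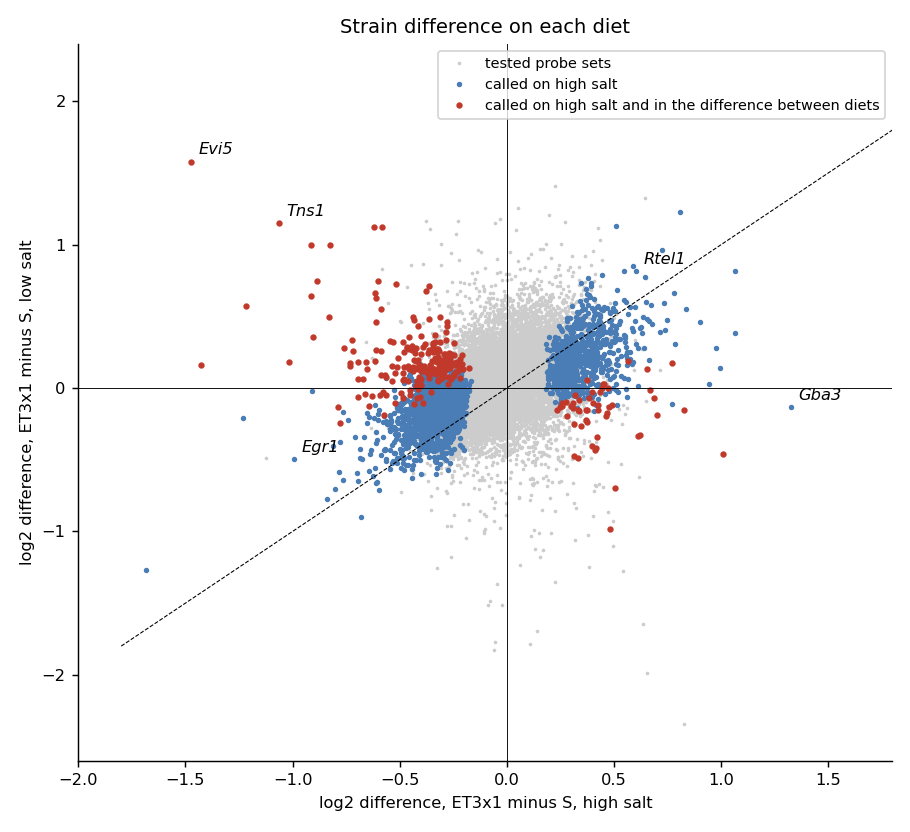
Log2 difference, ET3x1 minus S, on high salt (x axis) and low salt (y axis) for 15473 probe sets. Grey points were not called on high salt, blue points were called on high salt, and red points were also called in the difference between diets. Evi5 and Tns1 lie far into the upper left, lower on high salt and higher on low salt, and the dashed line marks equal differences.

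The strain difference itself differed between diets in 850 probe sets (5.49%), 219 higher (1.42%) and 631 lower (4.08%) on high salt relative to low salt. Of the 850, 263 were called on high salt and 598 on low salt, and all 60 probe sets called in opposite directions on the 2 diets were among them. Cmip, an adaptor of T cell signalling, was lower by -0.62 on high salt and higher by 1.12 on low salt, and Mmp14, a membrane-bound matrix protease, by -0.58 and 1.12. Vcl, which encodes vinculin of focal adhesions, led in the other direction. It differed by 0.14 ± 0.24 on high salt and -1.69 ± 0.24 on low salt, a difference between diets of 1.83 ± 0.34 (adjusted p = 0.00255). Another Vcl probe set was higher by 0.45 ± 0.06 on high salt and called, and was at 0.03 on low salt. The last Vcl probe set was at -0.21 on high salt, not called, and at -0.39 on low salt. Kpna1, Peli2, Wtap and Paip1 were not called on high salt and lower on low salt, while Sppl2a, a lysosomal protease, was higher by 0.48 and lower by 0.99 (-0.99 ± 0.16). In all 6 of these genes an S rat on low salt, S7429, read highest of the 18 rats. These differences between diets were each read in 1 probe set. Others were at -0.18 and -0.02 for Kpna1 on high salt and -0.09 and 0.08 on low salt. On high and low salt, Peli2 had another at -0.09 and -0.14, Wtap at 0.08 and -0.05 and Sppl2a at 0.19 and -0.13. Paip1 had 0.24 and -0.16, and Mmp14 0.17 and 0.21. For Cmip they were -0.24 and 0.53, and -0.29 and 0.10. None of these other probe sets was called on high salt. Without ET3x1 rat 39854 on low salt the count of the difference between diets was 308, without 39851 it was 313, and without rat 39850 it was 1547. With the Gapdh covariate the count was 27, and with bioD minus bioC it was 173. On both chips the mean of bioD minus bioC was itself higher in ET3x1 than in S on high salt and lower on low salt. Vcl, Kpna1, Peli2, Sppl2a, Wtap and Paip1 lost their call with the Gapdh covariate (limma, adjusted p from 0.0594 to 0.331). Kpna1, Wtap and Paip1 also lost it with bioD minus bioC. Evi5, Tns1, Ccdc6, Cpd, Cmip and Mmp14 were called with either covariate.

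The genes called on high salt differed in length. The median span in the genome was 46.0 kb for genes called lower, 14.5 kb for genes called higher and 22.8 kb over all tested genes, and across 8793 genes, not independent replicates, difference and span had a Spearman rho of -0.238. On low salt the spans were 49.4 kb and 12.1 kb. The part of the array measures in this pattern was not tested.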

How the data were processed

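RNA of 1 left kidney from each of 26 rats was labelled as biotin cRNA for an RAE230A and an RAE230B chip, per the labels. The authors deposited log2 expression values, whose array medians were nearly equal. On RAE230B the medians averaged 6.3535 in ET3x1 and 6.3821 in S on high salt (exact permutation p = 0.0476, adjusted 0.109). How probe values were summarised and normalized is not stated in the labels. Array number limits the precision. Left out were 57 controls a chip and every probe set whose mean over the 26 rats lay under the chip median (7.51 on RAE230A, 6.38 on RAE230B). For 100 probe sets present on both chips, RAE230A alone was used. Each chip was fitted over all 6 groups with limma 3.58.1 in R 4.3.3 (eBayes with a trend, 20 residual degrees of freedom), with Benjamini-Hochberg adjustment over both chips, called below 0.05 and two-sided. The fit was tested on simulated data. No 2 arrays held the same values. Symbols came from the platform annotation through RefSeq (GRCr8): 11110 probe sets had 1, 274 several and 4089 none. Named are the 14 genes with the largest called difference each way on high salt by the probe set of smallest p, 6 each way for the difference between diets, up to 4 called members of each of 32 lists (otherwise the 2 of largest statistic), and Rtel1, Sgk1 and Agt. Members and lists were chosen with earlier results of these data known. Alternatives are given at the end.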

Additional observations from a re-analysis of the deposited data

Results flagged for a closer look

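Among the named genes and the control measures, 240 groups of 4 or 5 rats were checked with Dixon's test for a rat far from the others, which chance alone flags in about 1 in 20 groups, and 19 values, from 6 rats, stood apart. Some of these values lay close to the others in absolute terms. Among ET3x1 rats on high salt, rat 39845 was low in Ggt1 (12.68, log2), Hba-a3 (11) and Cdkn1a (8.41) and high in Timp1 (8.43). The other ET3x1 rats read 12.70 in Ggt1, 12.24 to 12.25 in Hba-a3, 8.51 to 8.53 in Cdkn1a and 8.11 to 8.12 in Timp1. Rat 39848 was high in Per3 (7.49), Gatm (12.6), Flna (9.81) and the Gapdh 3' minus 5' difference on RAE230B (0.548). In Per3 the other ET3x1 rats read 7.40 to 7.41. Rat 39849 was high in Ccdc6 (9.88) and low in Cubn (11.1), Fxyd4 (9.67) and Slc6a6 (8.73).

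Among S rats on high salt, S7418 was high in Cpd (9.19) and low in Sppl2a (6.48) and Sod3 (10.5), where the other S rats read 11.47 to 11.70. S7435 was low in Ccdc6 (10.2) and Agxt2 (11.9) and high in Srxn1 (8.35), and S7416 was high in Ehd3 (7.81). What set these rats apart was not tested.

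The strain difference differed between the diets, by limma's test of the difference itself with an adjusted p below 0.05, in 23 named probe sets. Values are the log2 difference on high salt minus that on low salt. It was positive in Vcl (1.83), Kpna1 (1.60), Peli2 (1.58), Sppl2a (1.47), Wtap (1.42), Paip1 (1.34), Borcs7 (0.981), Ints7 (0.887) and Pakap (0.595). It was negative in Evi5 (-3.05), Tns1 (-2.21), Ccdc6 (-1.91), Cpd (-1.82), Cmip (-1.74), Mmp14 (-1.70), Ccar1 (-1.63), Srrm2 (-1.55), Nrp1 (-0.905), Sv2b (-0.884), Slc12a3 (-0.662), Lamb2 (-0.658), Rpl5 (-0.476) and Lama5 (-0.417). With the Gapdh covariate 27 probe sets were called in this difference, all among the 850 called without it.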

How the results depend on the processing

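No named result changed its direction while called, under any alternative run. Counts below are of probe sets called on high salt, higher and lower, then on low salt, in the difference between diets and on both diets alike. The counts were 2246, 756, 1490, 4150, 850 and 734. Without the brightness limit they were 3940, 1574, 2366, 7187, 787 and 1417, where more probe sets were tested. All 15866 non-control probe sets of RAE230A and 15276 of RAE230B then entered, less 100 present on both, against 15473 with the limit. Among the brightest 25% the counts were 1005, 331, 674, 2353, 508 and 325, where fewer probe sets were tested. At an adjusted p below 0.01 they were 763, 225, 538, 1919, 141 and 178. With the Gapdh covariate they were 227, 42, 185, 3930, 27 and 91, and with the beta-actin covariate 720, 174, 546, 4462, 932 and 234. With the bioD minus bioC covariate they were 1247, 448, 799, 3113, 173 and 340. With array weights the difference between diets gave 2388. Leaving out S7416 and S7417 together, an alternative chosen after seeing the data, gave 1279, 473 and 806 on high salt, 358 in the difference and 407 on both diets. Beyond the differing number of probe sets tested, the causes of these changes were not tested.

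Leaving out 1 rat at a time, the count on high salt ranged from 1126 to 2212, higher from 374 to 724 and lower from 752 to 1488. The count on low salt ranged from 2448 to 4355, the difference between diets from 308 to 1547 and both diets from 384 to 764. Under quantile normalization the high-salt count was 2208, with 985 higher and 1223 lower, and with array medians set equal 2063. The 118 named results included some that were not called to begin with, such as Sgk1 and Pcna. Of those called, 78 lost their call with the Gapdh covariate, 44 with beta-actin, 32 with bioD minus bioC and 39 without S7416 and S7417. No paired analysis was possible because replicate names are animal numbers that no 2 groups share. Signals below the brightness limit, such as that of Agt, limit what could be seen there.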
